A study of Mus musculus with 24 samples.

Results

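Actl6b, Ttc9b, Golga7b and Sema4f are 4 genes grouped here under the label of late neuronal genes. Their transcripts were followed in P19 mouse embryonic carcinoma cells exposed to retinoids. They were picked by exact gene symbol with earlier results of these data in view, from the 1753 genes that appear in at least 1 of 23 deposited expression tables. The values that chose them are the listed log2 fold changes themselves, so what follows is a description and carries no test. Actl6b encodes BAF53b, the actin-like subunit that neurons place in the BAF (SWI/SNF) chromatin remodelling complex. Ttc9b encodes a protein with tetratricopeptide repeats, a motif for binding other proteins. Golga7b encodes an accessory protein of palmitoyl transferases, the enzymes that attach a lipid to membrane proteins. Sema4f encodes a transmembrane semaphorin, a member of a family of axon guidance cues.

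P19 is an established line that resembles pluripotent cells and turns into neurons under retinoic acid. All-trans retinoic acid (ATRA) acts through the retinoic acid receptors RARα, RARβ and RARγ, ligand-activated transcription factors encoded by Rara, Rarb and Rarg. When progenitors leave the cell cycle and become neurons, the BAF subunit encoded by Actl6a gives way to the product of Actl6b. Many neuronal genes are kept silent outside neurons by the repressor REST, which binds a 2-part DNA element called RE1.

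The study compared agonists of single receptors with ATRA in wild-type (WT) P19 cells and in lines in which Rara, Rarb or Rarg was knocked out (labelled raraKO, rarbKO and rargKO, and written Rara-/-, Rarb-/- and Rarg-/- here). Cells grew as a monolayer and received ATRA at 1 µM, the RARα agonist BMS753 at 1 µM, the RARβ agonist BMS641 at 0.1 µM, the RARγ agonist BMS961 at 0.1 µM, both of the latter together, or ethanol (EtOH) as the vehicle. Ligands were given for 4 d, followed by 6 d in Neurobasal medium with N2 and B27 devoid of vitamin A. Poly(A) RNA of 24 samples, 1 library for each condition, was sequenced. WT cells were sampled at days 2, 4 and 10 with ATRA, BMS753, BMS641+BMS961 or ethanol, and at day 10 also with BMS961. Rara-/- cells at day 10 received ATRA, BMS961 or BMS641+BMS961. Rarb-/- cells at day 10 received ATRA, BMS753, BMS961 or BMS641+BMS961, and Rarg-/- cells ATRA, BMS753, BMS641 or BMS641+BMS961. The sources used here do not say whether a knockout line is 1 clone, and no vehicle-treated knockout library was analysed.

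Every table sets 1 library against a single reference, WT cells kept in ethanol for 2 d. A table gives the authors' DESeq2 log2 fold change for the genes with an unadjusted p-value under 0.01. A gene that is absent from a table is called not listed, which does not mean that it was silent or unchanged. All comparisons share the 1 reference library, there is no replicate, and read depth is unknown. The error given with a value is the standard error (SE) implied by the log2 fold change and its deposited p-value, so it reflects the authors' model and not a spread between cultures. Up-regulated means a log2 fold change over 2. Rara, Rarb and Rarg themselves were listed in 0 tables, so the knockouts could not be checked here. All 4 of the listed pluripotency genes of a list of 6, Tdgf1, Nanog, Utf1 and Pou5f1, were below the reference under ATRA at day 10 in WT cells, with Pou5f1 at a log2 fold change of -9.88.

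The positions of the 4 genes were read from the mm9 annotation. Actl6b (ENSMUSG00000029712.8) lies on the plus strand at chr5:137994745-138010810, with 14 separate exon blocks and 1944 exonic bases. Ttc9b (ENSMUSG00000007944.7) is a short gene on the plus strand at chr7:28438934-28441227, with 3 exon blocks and 914 exonic bases. Golga7b (ENSMUSG00000042532.8) lies at chr19:42322064-42344838 on the plus strand, with 7 exon blocks and 2988 exonic bases. Sema4f (ENSMUSG00000000627.9) lies at chr6:82861879-82889763 on the minus strand, with 14 exon blocks and 5137 exonic bases. None of the 4 overlaps another annotated gene (0 each), so their counts were not shared with an overlapping or antisense gene of that annotation.

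Start regions of 300 bases, from 250 before to 50 after the start, were taken from RefSeq on GRCm38.p6 for all 4 genes (5 regions, since Golga7b has 2). The letters of both parts of RE1, GCTGTCC and GGTGCTGA, and of the RAR half-site, AGGTCA, were searched on both strands. The motifs were chosen after these regions had been read. Printed here are the 3 stretches that hold the matches. Capitals mark both parts of RE1 in Actl6b and Ttc9b, and the AGGTCA half-site, read on the opposite strand, in Golga7b.
Actl6b: ggaGCTGTCCggccgcctcGGTGCTGAtcc
Ttc9b: cggcgcGCTGTCCccGGTGCTGAtgctca
Golga7b: ggcccctcctcaTGACCTgtcaatgactgg

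The Actl6b stretch lies at chr5:137553564-137553593 on the plus strand of GRCm38.p6, and its RE1 parts span bases 22 to 45 after the start. The same letters occur once on the mm9 chromosome, at chr5:137994792-137994821, in an exon and untranslated region of Actl6b. The Ttc9b stretch lies at chr7:27653935-27653963 on the plus strand of GRCm38.p6, with its RE1 parts at bases 18 to 34 after the start. In mm9 it occurs once, at chr7:28438954-28438982, in coding sequence of a Ttc9b exon. The Golga7b stretch lies at chr19:42247507-42247536 of GRCm38.p6, on the plus strand, and its half-site ends 54 bases before the start. In mm9 it occurs once, at chr19:42321997-42322026, just outside the annotated gene.

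Of 32851 start regions of the same length, 6.56% hold GCTGTCC and 1.65% hold GGTGCTGA. Both parts in this order and 0 to 12 bases apart occur in 18 regions (0.0548%). In Actl6b they are 9 bases apart, a spacing found in 2 regions (0.00609%), and in Ttc9b 2 bases apart, found in 6 regions (0.0183%). Of the 18 genes with such a region, 4 were listed in any table, namely Actl6b, Ttc9b, Scg2 (secretogranin II of neuronal secretory granules) and Grm2 (a glutamate receptor). Scg2 was up-regulated in 6 tables of day 10 and Grm2 in 1. Actl6b and Ttc9b were picked from listed genes, and the share of all start regions whose gene was listed was not computed. No link of RE1 with listing can therefore be read from this count. The AGGTCA half-site occurs in 16.3% of regions, and no member had it as a direct repeat with 5 or 2 bases between (each in 3 regions, 0.00913%). Sema4f and the second Golga7b region had none of these letters. These are matches of letters, and binding was not measured.

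None of the 4 genes was listed at days 2 or 4 under any ligand, and 3 of them were listed at day 10 in the same 8 of 16 tables. The background for each count is the share of the 1753 genes that were up-regulated in the same table or tables. In the 6 WT tables of days 2 and 4 with a ligand, 0 of 24 values of the 4 genes were up-regulated, beside 6.08% of all values. Day by day, that share was 5.65% with ATRA, 6.39% with BMS753 and 3.71% with BMS641+BMS961 at day 2, and 10.2%, 8.33% and 2.22% at day 4. With ethanol 1 of 8 values was up-regulated (Sema4f at day 10), beside 5.59% of all values, or 1.65% at day 4 and 9.53% at day 10. At day 10 with ATRA or BMS753, 28 of 28 values in 7 tables were up-regulated, beside 21.1% of all values. By table this was 22.5% with ATRA and 21.8% with BMS753 in WT cells, and 19% with ATRA in Rara-/- cells. For Rarb-/- cells it was 20.5% with ATRA and 22.3% with BMS753, and for Rarg-/- cells 21.4% and 19.9%. With BMS641, BMS961 or both at day 10, 10 of 32 values in 8 tables were up-regulated, beside 9.76%. The combination had a share of 9.87% in WT, 16.8% in Rara-/-, 8.27% in Rarb-/- and 8.61% in Rarg-/- cells. A single agonist had 8.16% in WT, 10.9% in Rara-/- and 7.02% in Rarb-/- cells with BMS961, and 8.5% in Rarg-/- cells with BMS641. Over all 16 tables of day 10, 39 of 64 values were up-regulated, beside 14.7%. Because membership was chosen on these values, the difference from the background was not tested. In the ATRA and BMS753 tables of day 10 the median log2 fold change of the 4 genes was 9.11, and that of all up-regulated genes 6.86. Genes with SEs as large as theirs had a listing limit of 6.65 to 6.92 at day 10, as set out below. The smallest absolute change listed in these 7 tables was 4.2 to 4.7. A higher median of the 4 genes thus follows in part from the listing rule.

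**Figure D1:**
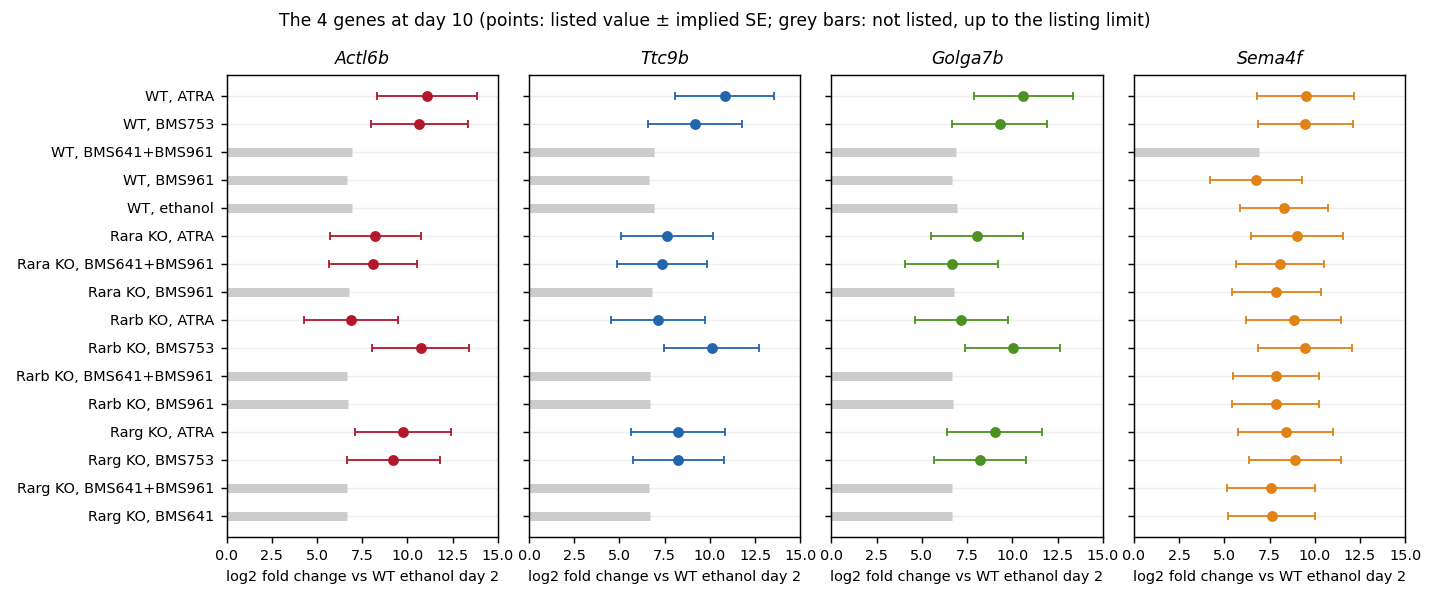
Log2 fold change against WT ethanol at day 2 (x axis) in each of the 16 day 10 conditions (y axis), 1 panel per gene. Points are listed values with their implied SE, and grey bars mark conditions where the gene was not listed, drawn up to the listing limit of that table. Actl6b, Ttc9b and Golga7b have points in the same 8 rows, and Sema4f in 15.

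In WT cells Actl6b had the second highest log2 fold change of 395 up-regulated genes with ATRA, 11.07 ± 2.77 (SE), and the third highest of 383 with BMS753, 10.66 ± 2.69. These ranks are of folds that may stand over a common floor of the reference library, as set out with the listing limits. In Rara-/- cells it was 8.23 ± 2.53 with ATRA and 8.10 ± 2.43 with BMS641+BMS961, and it was not listed with BMS961 alone. In Rarb-/- cells it was 6.86 ± 2.60 with ATRA and 10.73 ± 2.68 with BMS753. Its highest value was thus in WT cells with ATRA and its lowest listed value in Rarb-/- cells with the same ligand. In Rarg-/- cells Actl6b was 9.75 ± 2.67 with ATRA and 9.22 ± 2.56 with BMS753. It was not listed in WT cells with ethanol, BMS961 or BMS641+BMS961, nor in Rarb-/- or Rarg-/- cells with any RARβ or RARγ agonist.

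Ttc9b was up-regulated in the same 8 tables as Actl6b. In WT cells it reached 10.81 ± 2.76 with ATRA and 9.19 ± 2.61 with BMS753, and in Rara-/- cells 7.63 ± 2.53 with ATRA and 7.37 ± 2.48 with BMS641+BMS961. In Rarb-/- cells its log2 fold change was 7.13 ± 2.59 with ATRA and 10.09 ± 2.65 with BMS753. In Rarg-/- cells both ligands gave nearly the same value, 8.25 ± 2.60 with ATRA and 8.26 ± 2.54 with BMS753. The order of conditions was like that of Actl6b at its ends, with WT ATRA highest and Rarb-/- ATRA lowest.

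Golga7b, the palmitoylation cofactor, followed the same 8 tables. WT cells gave 10.62 ± 2.74 with ATRA and 9.29 ± 2.62 with BMS753, and Rara-/- cells 8.05 ± 2.53 with ATRA and 6.64 ± 2.57 with BMS641+BMS961. Rarb-/- cells gave 7.19 ± 2.59 with ATRA and 10.01 ± 2.64 with BMS753, and Rarg-/- cells 9.02 ± 2.63 and 8.21 ± 2.54. Its lowest value was with BMS641+BMS961 in Rara-/- cells and stood at the edge of that table, just inside the p-value limit. Over the 8 tables Golga7b differed from Ttc9b by 0.30 log2 units on average, from Actl6b by 0.78, and Ttc9b from Actl6b by 0.80. The implied SE does not measure a difference between genes, and no error was computed for these.

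Sema4f had another pattern and was listed above the reference at day 10 in 15 of 16 tables, ethanol included. With vehicle alone WT cells had a log2 fold change of 8.30 ± 2.43 at day 10, the ninth highest of 167 up-regulated genes. WT cells gave 9.51 ± 2.68 with ATRA, 9.49 ± 2.63 with BMS753 and 6.77 ± 2.54 with BMS961. WT cells with BMS641+BMS961 were the 1 condition of day 10 without a listed value. In Rara-/- cells Sema4f was 9.03 with ATRA, 8.07 with BMS641+BMS961 and 7.88 with BMS961. In Rarb-/- cells it was 8.83 with ATRA, 9.46 with BMS753, 7.87 with BMS641+BMS961 and 7.85 with BMS961. In Rarg-/- cells it was 8.38 with ATRA, 8.92 with BMS753, 7.59 with BMS641+BMS961 and 7.63 with BMS641. Implied SEs for this gene lay between 2.38 and 2.68. The values with ATRA or BMS753 ran from 8.38 to 9.51, and those with BMS641, BMS961 or both from 6.77 to 8.07. The difference of WT ATRA from WT ethanol at the same day was 1.21 log2 units, and that of WT BMS961 from ethanol was -1.53. In all 18 pairs of conditions compared for Sema4f the difference was below the larger of both SEs.

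Of the study's own lists of cell type markers, that of neurons holds Actl6b, and none holds Ttc9b, Golga7b or Sema4f. The label of late neuronal genes was held against 37 other genes of neurons after cell cycle exit, of which 15 were listed. Of these, 12 were up-regulated at day 10 in WT cells with ATRA, 11 with BMS753, 4 with BMS641+BMS961 and 0 with BMS961 or ethanol. Sema4f was listed in both of the last conditions, so its day 10 value did not go with the neuron list there. Conversely, WT cells with BMS641+BMS961 had Dcx (doublecortin, of migrating neurons) at 4.67, Scg3 at 3.85, Mapt (tau) at 3.46 and Gap43 (growth cones) at 3.07, while none of the 4 genes was listed. Genes with SEs as large as those of the 4 had a listing limit of 6.91 there, as set out below. Rises of the 4 genes as large as those of these neuron genes would thus have gone unlisted. At days 2 and 4 the neuron list had at most 2 genes up-regulated in a table. Tubb3 was up-regulated in 2 tables of day 10, WT ATRA at 4.87 and Rarb-/- BMS753 at 4.49, and Map2, a dendritic marker, in 6 (3.69 to 5.82).

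**Figure D2:**
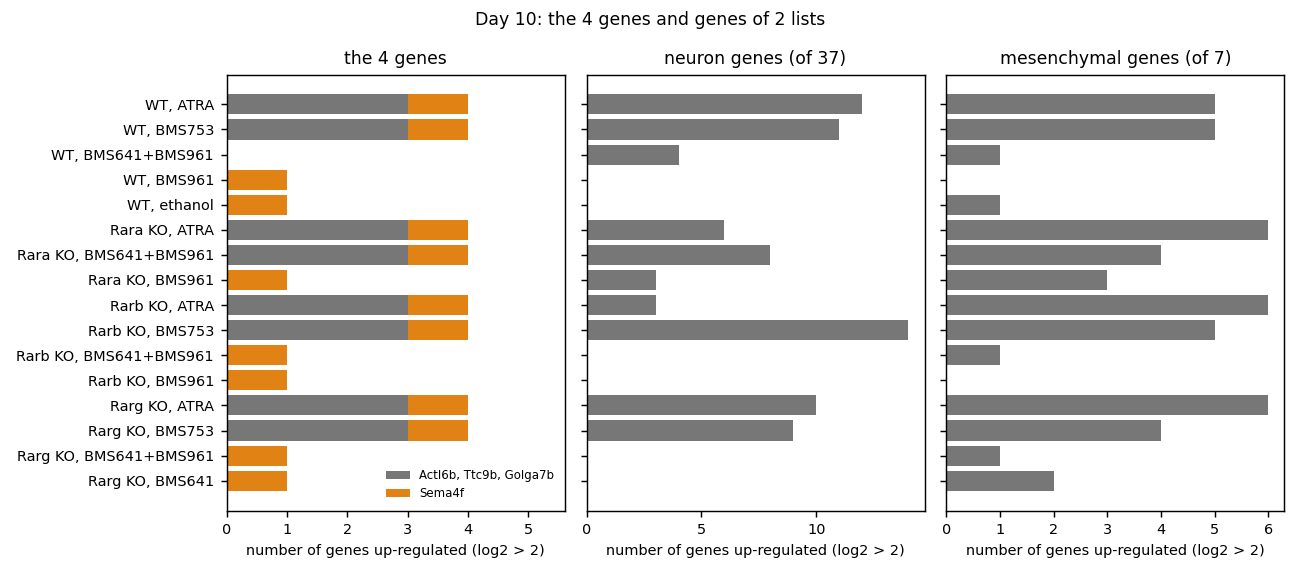
Number of genes with a log2 fold change over 2 (x axis) in each day 10 condition (y axis), for the 4 genes, the 37 neuron genes and the 7 mesenchymal genes. Rarb-/- cells with ATRA have all 4 genes but 3 neuron genes and 6 mesenchymal genes.

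In the knockout lines the neuron list and the 4 genes also differed in extent. Rara-/- cells had 6 neuron genes up-regulated with ATRA, 8 with BMS641+BMS961 and 3 with BMS961. Rarb-/- cells had 3 with ATRA and 14 with BMS753, and Rarg-/- cells 10 with ATRA and 9 with BMS753. With BMS641, BMS961 or both, Rarb-/- and Rarg-/- cells had 0. Actl6b, Ttc9b and Golga7b were thus listed in each day 10 table with 6 or more neuron genes, and in Rarb-/- ATRA with 3. They were not listed in WT BMS641+BMS961 with 4 neuron genes, in Rara-/- BMS961 with 3, or in any day 10 table with 0. The listing limit was 6.65 to 6.92 in the tables without them, so lower levels there would not have been seen. The neuron counts do not share a cut either. The smallest absolute log2 fold change listed at day 10 was 4.2 to 4.7 with ATRA or BMS753 and 2.7 to 3.3 with BMS641, BMS961 or both. In Rara-/- cells Nefm (3.53), Map2 (3.69), Syt4 (3.79) and Scg3 (4.14) with the combination lay below the smallest value listed with ATRA, 4.17. So did the 3 neuron genes with BMS961, at 3.41 to 3.91.

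ATRA and BMS753 were used at the same dose of 1 µM. Each difference between 2 conditions is given beside the SE obtained by combining both implied SEs, which was 3.38 to 3.86 log2 units and does not take out the shared reference. Of the 48 differences computed for the 4 genes, 3 exceeded it, by at most 1.11 times, and 11 exceeded the larger of both SEs. Error of the shared reference enters both SEs, so neither measure says which differences exceed the error of single libraries. No difference was tested. Library depth is unknown, and whether the folds between libraries were corrected for it was not tested. Folds of the genes with the largest SEs shared a step in all 23 tables, as set out with the listing limits. In WT cells ATRA exceeded BMS753 by 0.41 log2 units for Actl6b, 1.63 for Ttc9b, 1.32 for Golga7b and 0.03 for Sema4f. In Rarg-/- cells the difference was 0.53 for Actl6b, -0.01 for Ttc9b, 0.81 for Golga7b and -0.54 for Sema4f. In Rarb-/- cells ATRA gave lower values than BMS753, with differences of -3.87 for Actl6b (14.6-fold), -2.96 for Ttc9b (7.76-fold) and -2.83 for Golga7b (7.09-fold), while Sema4f differed by -0.62. The difference of Actl6b was 1.04 times the combined SE, and those of Ttc9b and Golga7b were 0.797 and 0.763 of it. The median of the same difference over the 166 genes up-regulated in both Rarb-/- tables was 0.44, in the opposite direction. This median, like those below, leaves out genes up-regulated in only 1 table of the pair (359 were up-regulated with ATRA and 391 with BMS753). Of the neuron genes, Mapt (5.18 against 7.82), Scg2 (4.82 against 5.13) and Syt1 (4.83 against 5.14) were up-regulated in both and lower with ATRA. The contrast of Rarb-/- cells with the other lines was not tested.

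**Figure D3:**
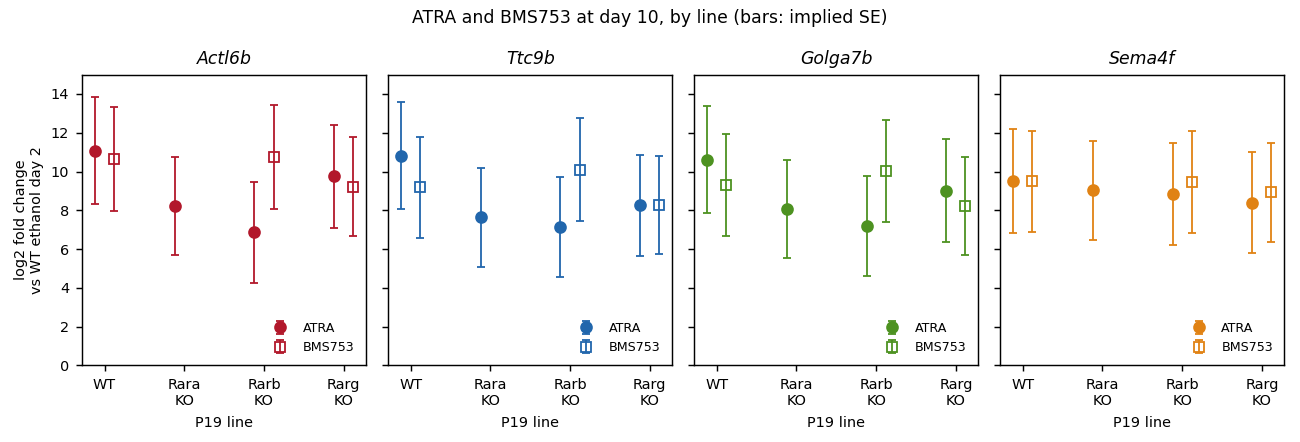
Log2 fold change against WT ethanol at day 2 (y axis) with ATRA (filled circles) and BMS753 (open squares) at day 10 in the 4 lines (x axis), with implied SE. In Rarb-/- cells the circles of Actl6b, Ttc9b and Golga7b lie below the squares, with differences of -2.83 to -3.87 log2 units. No library of Rara-/- cells with BMS753 was analysed here.

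The low values in Rarb-/- cells went with ATRA and not with BMS753. With ATRA the Rarb-/- line differed from WT by -4.21 for Actl6b (18.5-fold), -3.68 for Ttc9b (12.8-fold) and -3.43 for Golga7b (10.7-fold), and by -0.68 for Sema4f. The 179 genes up-regulated in both had a median difference of 0.42, again without genes up-regulated in only 1 of the tables. With BMS753 the same lines differed by 0.07, 0.90, 0.72 and -0.03, in the same order of genes, with a median of -0.01 over 297 genes. With ATRA the Rara-/- line differed from WT by -2.85 for Actl6b, -3.18 for Ttc9b and -2.56 for Golga7b, and by -0.48 for Sema4f (median over 218 genes -0.23). The Rarg-/- line with ATRA differed from WT by -1.33, -2.56, -1.60 and -1.13. Of the differences from WT in this paragraph, that of Actl6b in Rarb-/- cells with ATRA was above its combined SE of 3.80.

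Genes of other cell types moved in the same Rarb-/- library. Of 7 mesenchymal genes, 6 were up-regulated there with ATRA, at 4.79 to 11.90, and 5 with BMS753, at 4.89 to 9.51. Postn (periostin) was 11.04 with ATRA and 4.89 with BMS753, Col1a1 9.19 and 5.45, and Col3a1 11.90 and 9.51. Acta2, the remaining gene, was up-regulated in neither. Of the neural progenitor genes, Hes5, Neurod1, Neurog1 and Neurog2 were up-regulated in Rarb-/- cells with BMS753 (7.20 to 11.96) and not listed with ATRA, where Fabp7 was 6.20 against 10.38 with BMS753. In WT cells the mesenchymal list had 5 genes up-regulated with ATRA, at 5.20 to 10.19, and 5 with BMS753. Whether a shift in cell types accounts for the lower values of the 3 genes was not tested, and in bulk RNA fewer neurons and less transcript per neuron cannot be told apart.

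In Rara-/- cells the combined agonists BMS641+BMS961 gave listed values for all 4 genes, and BMS961 alone gave 1, that of Sema4f. The listing limit with BMS961 was 6.79, above the 6.64 of Golga7b with the combination and below the 8.10 of Actl6b and 7.37 of Ttc9b. With a p-value limit of 0.001, Actl6b and Sema4f stayed up-regulated with the combination, and Ttc9b and Golga7b did not. Of the 12 values of this line 9 were up-regulated, beside 15.6% of all values. Compared with ATRA in the same line, the combination differed by -0.13 for Actl6b, -0.27 for Ttc9b, -1.41 for Golga7b and -0.97 for Sema4f, beside a median of -0.67 over 167 genes. Doses differed, since each agonist was at 0.1 µM and ATRA at 1 µM. Compared with WT cells under ATRA, the combination in Rara-/- cells gave differences of -2.98 for Actl6b, -3.45 for Ttc9b and -3.97 for Golga7b, and -1.44 for Sema4f, of which that of Golga7b was above its combined SE of 3.76. The 189 genes up-regulated in both had a median difference of -1.20. Mesenchymal genes up-regulated in Rara-/- cells numbered 6 with ATRA and 4 with the combination, and the part of other cell types in these values was not tested.

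How low a value could fall before it went unlisted was read from the tables. The implied SEs of the 4 genes lay on the upper edge of each table. Fold changes of genes there, multiplied by a factor close to 24 fitted to the other genes of each table, fell within 0.05 of a whole number. This held for 20 of 20 values of the 4 genes below 320-fold and for 1242 of 1257 other values of that kind (98.8%). The fitted factors of the 23 tables were 24.0006 to 24.0011, a step near 1/24. The property was noticed after the values were seen. Such a step is what a single reference value shared by these genes would give, so their folds and ranks may be levels over a common floor of the reference library. Because only factors close to 24 were tried, whether a scale factor differed between libraries was not tested. The counts that could settle either point were not used here. Where several genes have the same log2 fold change in a table they have the same whole number, as Actl6b and Pdgfra at 8.10 and Golga7b and Calb1 at 6.64 in Rara-/- cells with BMS641+BMS961. The listing limit of a table was taken as the largest log2 fold change among genes with a deposited p-value between 0.009 and 0.01, and was 6.65 to 6.92 at day 10 (100-fold to 121-fold), depending on the table. A level up to about 120-fold above the reference for Actl6b, Ttc9b and Golga7b in WT cells with ethanol or BMS641+BMS961 could therefore have gone unlisted. In WT cells with BMS641+BMS961 the limit was 6.91, which is below the 8.30 that Sema4f had with ethanol and above its 6.77 with BMS961.

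**Figure D4:**
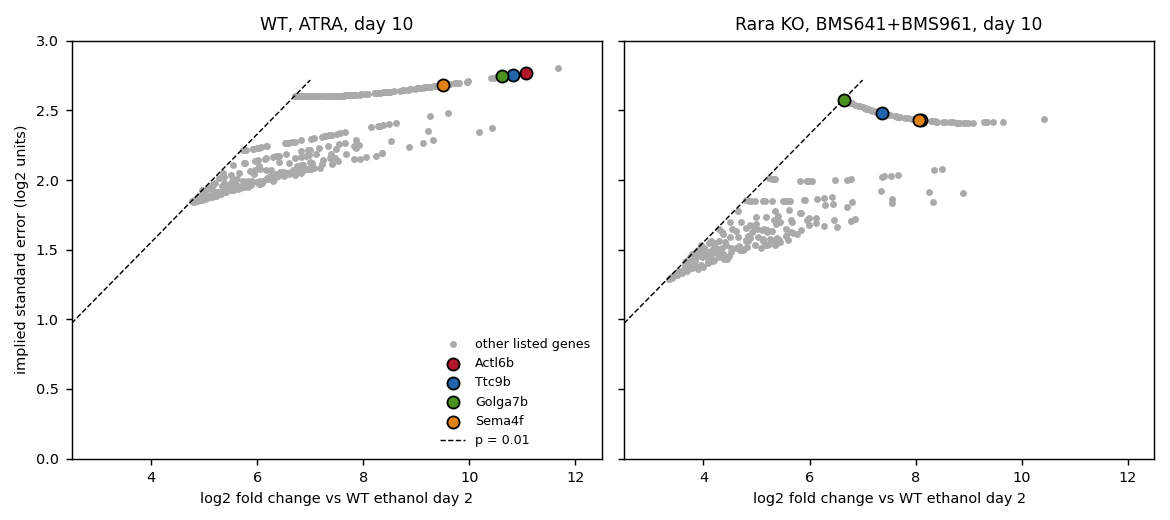
Implied SE (y axis) against log2 fold change (x axis) of the genes above the reference at day 10, for WT cells under ATRA and for Rara-/- cells under BMS641+BMS961. The dashed line marks the p-value limit of 0.01; the 4 genes (coloured) lie on the upper band, and Golga7b in Rara-/- cells, at 6.64, touches the line.

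The values nearest to the limit were Golga7b in Rara-/- cells with BMS641+BMS961 (6.64), Actl6b (6.86) and Ttc9b (7.13) in Rarb-/- cells with ATRA, and Sema4f in WT cells with BMS961 (6.77). Days 2 and 4 had a limit of 6.25 to 7.61 in 6 of the 7 tables, and in the remaining table, WT BMS641+BMS961 at day 2, the same rule gave 3.29, set by genes with a smaller SE. There the 21 genes with the largest implied SEs, the kind the 4 genes belong to, had log2 fold changes of 6.40 and above. Absence at days 2 and 4 hence leaves room for a rise of 76.0-fold to 194.7-fold over the reference in those 6 tables.

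The genes most like Actl6b were sought among all genes by the Jaccard index of the 16 day 10 tables in which they were up-regulated (1 means the same tables), and then by the mean absolute difference of their log2 fold changes. All tables share the reference library, so the index is a description. Besides Actl6b, 24 genes had exactly its 8 tables. The nearest were Golga7b (0.78) and Ttc9b (0.80), followed by Cbln2 (1.36; a synaptic organiser), Tbx2 (1.48) and Hoxb3 (1.56), the last 2 being developmental transcription factors. Other genes with the 8 tables included Osr1, Twist1, Prrx1 and Postn of mesenchymal tissues, Hoxb4 and Hoxb8, and Aldh1a2, the enzyme that makes retinoic acid. The shared pattern was therefore not made of neuronal genes alone. By their median over the 8 tables Actl6b ranked below 2 of the other 24 genes, Tbx2 (9.79) and Osr1 (9.60).

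Listing at days 2 and 4 separated some of these genes. Of the 25, 14 were up-regulated at day 2 or 4 under a ligand, 13 of them with ATRA at day 4, and Actl6b, Ttc9b and Golga7b were among the other 11. Hoxb3 was 9.09 at day 2, 8.16 at day 4 and 6.72 at day 10 in WT cells with ATRA. Cbln2 was 7.82, 8.16 and 8.45, and Tbx2 was not listed at day 2 and was 11.35 at day 4 and 9.95 at day 10. In the same series Actl6b was not listed, not listed and 11.07. The listing limit with ATRA was 7.61 at day 2 and 7.51 at day 4, so lower levels of Actl6b there would not have been seen.

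For Sema4f, 2 genes had exactly the same 15 tables and were also missing from WT BMS641+BMS961. They were Mxd4, a partner of MAX, and Rbl2 (p130), a retinoblastoma family protein of resting cells. Cdkn2c, a cyclin-dependent kinase inhibitor, was up-regulated in all 16 tables and had the closest values, with a mean absolute difference of 0.39 over the 15 shared tables. In WT ethanol at day 10 Cdkn2c was 8.54, Rbl2 7.50 and Mxd4 7.01. Mxd4 and Rbl2 were already listed in ethanol at day 4 (6.78 and 6.51), where Sema4f was not. Of 956 genes up-regulated in at least 1 day 10 table, 11 were in 15 or 16 (1.15%), and 169 in 8 or more (17.7%).

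Known partners and relatives of the 4 proteins were looked up in the same tables. Of 29 BAF subunits and associated genes 3 were listed. Smarcd3, a BAF subunit of muscle and neurons, was up-regulated at 4.61 with ATRA and 3.84 with BMS641+BMS961 in Rara-/- cells, and at 4.81 in Rarb-/- and 4.42 in Rarg-/- cells with BMS753. Rest, the repressor named above, was 2.57 and Pbrm1 2.42 in WT cells with BMS641+BMS961 at day 2 and neither was listed elsewhere. Actl6a, the paralogue of Actl6b, and the neuronal BAF genes Dpf1, Dpf3 and Ss18l1 were listed in 0 tables. Ttc9 and Ttc9c were not listed either, nor was any of 16 genes of palmitoylation, Golga7 included.

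Of 31 semaphorin and receptor genes 10 were listed, and none was another member of the Sema4 class. Nrp1, the neuropilin that receives class 3 semaphorins, was up-regulated in 9 tables of day 10 (5.15 to 7.93), all 7 with ATRA or BMS753 among them, and in WT ATRA at day 4 (6.76). Plxna4, a plexin receptor, was up-regulated in 6 (4.10 to 7.51), with 5.58 in WT ATRA and 4.10 in Rara-/- cells with BMS641+BMS961. Sema3a (4.47), Sema5a (4.75) and Nrp2 (4.79) each reached 1 table of day 10. Neither receptor was listed in WT cells with ethanol, BMS961 or BMS641+BMS961 at day 10.

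Markers of glia, endoderm and progenitors were read beside these values. Of 7 astrocyte genes Slc1a2, a glutamate transporter, was up-regulated in 4 day 10 tables (4.78 to 5.74) and S100b in 1 (6.90). Aldh1l1, a folate enzyme of astrocytes, was below the reference in 13 tables, at -9.23 to -3.79 in those of day 10, and Gja1 in 2 (-2.98 and -2.80), while Gfap and Aqp4 were listed in 0. Of 6 oligodendrocyte precursor genes 1 was listed, Pdgfra, at 6.97 to 13.09 in 13 day 10 tables, highest in Rarb-/- cells with ATRA, and this gene is also expressed by mesenchymal cells. Of 5 endoderm genes, Gata6 was up-regulated in 4 day 10 tables (7.25 to 8.86) and Foxa2 in 1 (5.83). Of 13 progenitor genes, Fabp7 was up-regulated in 12 day 10 tables (4.27 to 10.42) and Hes5 in 10 (7.42 to 11.96). Fabp7 was up-regulated in WT cells with ethanol (4.27), where Actl6b, Ttc9b and Golga7b were not listed at a listing limit of 6.92.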

How the data were processed

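Total RNA of P19 cells was extracted, poly(A) RNA was captured, and 1 library per condition was sequenced (24 libraries). Reads were mapped to mm9 with Bowtie2 2.1.0, assigned to genes with featureCounts and compared with DESeq2, per the labels and the authors' methods. The authors deposited 23 tables with log2 fold changes and unadjusted p-values under 0.01. One table also holds the deposited standard error, a score in log2 units. No counts were used, and depth is unknown. These columns are the authors' own comparison and the only values in the tables, so they were described and not tested.

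Values were read by exact symbol. The SE is the absolute log2 fold change divided by the normal quantile of its two-sided p-value. Over the 144 genes with a deposited SE the largest relative difference was 4.27e-08. The calls were also run on simulated data, with p-values made by the same formula and an SE smaller than those of the 4 genes. That run therefore says nothing about calls for genes like these. No p-value was computed here, as there are no replicates. The 4 genes and all lists were chosen with earlier results of these data known. Named genes are the 4, their paralogues, up to 6 listed genes of each list with the most tables, and the 5 genes most like Actl6b, except 1 listed gene that is not reported here. Others (those with the pattern of Actl6b or Sema4f, genes named to complete a count, and the pairs of conditions) were named after their values were seen. Scripts ran in Python 3.11.15 (numpy 2.4.6, pandas 2.3.3, matplotlib 3.10.9, scipy 1.17.1). Alternatives changed the threshold, the p-value limit, symbol matching and the measure of likeness.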

Additional observations from a re-analysis of the deposited data

How the results depend on the processing

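Of 38 alternative values for 7 results, 30 stayed close to the value reported and 8 did not. With a p-value limit of 0.001 in place of 0.01, the up-regulated values of the 4 genes at day 10 fell from 28 to 18 with ATRA or BMS753, from 10 to 3 with BMS641 or BMS961, and from 9 to 3 in Rara-/- cells, by construction, since fewer values remain. The number of other genes with exactly the 8 tables of Actl6b was 24. It was 10 with a threshold of 6, 4 with a p-value limit of 0.005, 1 with a limit of 0.001 and 10 when the tables of days 2 and 4 were added. Of the 24 genes nearest by mean absolute difference with not listed values set to 0, 9 had the 8 tables. The counts at days 2 and 4 and in ethanol stayed the same under each alternative. The count of 0 at days 2 and 4 could not change under a stricter threshold or p-value limit. Thresholds of 3 and 6 could change no count of the 4 genes, since their lowest listed value was 6.64. Such fixed outcomes are among the 30 that stayed close. No paired analysis was possible because each condition has 1 library. Leaving out replicates was likewise not possible, and each value rests on 1 library and on the shared reference. The tables give no depth, so no detection limit from reads could be set.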
